A study of Mus musculus with 18 samples.

Results

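The genes of the MAP kinase cascade and the dual-specificity phosphatases (DUSPs) were followed in progenitor cells of mice with a JAK2V617F-driven myeloproliferative neoplasm (MPN). Probe sets were taken whose only annotated symbol starts with Mapk, Map2k, Map3k, Map4k, Mapkapk or Dusp followed by a digit. This gave 45 of the 9636 genes with a probe set of their own, 32 of the cascade and 13 DUSPs. Each of the 45 had 1 probe set, so no choice between probe sets was needed. The mouse gene table lists 77 genes under this rule, and those without such a probe set were not analysed here.

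Bone marrow came from Balb/c mice with established MPN, a retroviral model in which GFP marks the cells that carry JAK2V617F. Marrow cells of several mice per experiment were cultured for 16 h with SCF (100 ng/mL) and IL-3 (50 ng/mL), either untreated or with 10 μg/mL of a blocking antibody (BA) against TNF receptor 1 (TNFR1) or TNF receptor 2 (TNFR2). Lin-Kit+ cells were then sorted into a GFP+ fraction (JAK2V617F+) and a GFP- fraction (JAK2V617F-), which gave 6 groups with 3 arrays each. The sample titles name TNFR1 BA and TNFR2 BA, whereas the design text of the series writes TNFR1 for each, and the titles were followed. Both fractions came from diseased animals, so the JAK2V617F- cells were exposed to the disease in the same marrow, and no cells of healthy mice were on the arrays. The sources used here do not give the age or sex of the mice. Untreated JAK2V617F+ replicate 3, which the study excluded for quality, had a median log2 signal of 6.05 against 7.41 to 7.75 on the other arrays, so 17 arrays were used and untreated JAK2V617F+ cells had 2.

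A MAP kinase is activated by a MAP kinase kinase (MAP2K), which is activated in turn by a MAP3K, and MAP4Ks act further upstream. ERK, JNK and p38 kinases are the main end points. In blood progenitors the ERK branch lies downstream of Kit, the IL-3 receptor and JAK2, while JNK and p38 are classical branches of the TNF receptor response. DUSPs remove the activating phosphates from the MAP kinases, and several of them are induced by the kinases that they switch off, which makes them a feedback arm of the pathway. The arrays measure RNA, not phosphorylation.

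The promoters of the members with the smallest p-values between the genotypes, as far as RefSeq promoter windows were at hand and could be printed, are shown because Mapk8, Map3k20 and Dusp10 are described most closely. Each is the stretch of 250 bases before the first start site, in the direction of transcription, from RefSeq on GRCm38.p6. Capitals mark the letters TGACG (the core of the cAMP response element), CCAAT and GGGCGG (the GC box) on either strand, and neighbouring matches may touch. Mapk8 lies at chr14:33447159-33447408 on the minus strand, Map3k20 at chr2:72285387-72285636 on the plus strand, and Dusp10 at chr1:184034131-184034380 on the plus strand.
Mapk8: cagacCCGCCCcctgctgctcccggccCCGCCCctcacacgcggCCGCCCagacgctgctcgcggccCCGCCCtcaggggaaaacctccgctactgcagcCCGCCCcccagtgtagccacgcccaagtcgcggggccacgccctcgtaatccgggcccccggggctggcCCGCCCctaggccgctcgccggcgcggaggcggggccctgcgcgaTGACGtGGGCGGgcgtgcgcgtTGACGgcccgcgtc
Map3k20: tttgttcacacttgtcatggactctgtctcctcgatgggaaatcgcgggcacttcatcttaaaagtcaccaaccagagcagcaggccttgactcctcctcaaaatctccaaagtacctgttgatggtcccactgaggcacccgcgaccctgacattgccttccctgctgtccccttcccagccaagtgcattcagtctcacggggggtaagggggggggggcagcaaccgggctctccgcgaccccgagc
Dusp10: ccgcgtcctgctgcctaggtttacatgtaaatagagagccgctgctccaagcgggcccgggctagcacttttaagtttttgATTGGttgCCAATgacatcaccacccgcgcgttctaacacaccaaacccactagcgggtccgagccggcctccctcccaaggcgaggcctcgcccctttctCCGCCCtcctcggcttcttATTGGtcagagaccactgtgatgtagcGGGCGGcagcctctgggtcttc
The Mapk8 window was 79.2% G or C, with 7 matches of GGGCGG and 2 of TGACG. The Dusp10 window was 59.6% G or C, with 3 matches of CCAAT and 2 of GGGCGG. None of the 3 motifs was found in the Map3k20 window, which was 58.4% G or C. Over all 32851 promoter windows the mean was 53.2%.

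Windows were available for 51 start sites of 40 members. GGGCGG was in 60.8% of the member windows and in 32.7% of all windows, TGACG in 31.4% and 17.8%, and CCAAT in 35.3% and 33.8%. The STAT motif TTCNNNGAA was found for Map2k4 and Mapk14, in 3.92% of member windows against 7.02% of all. The AP-1 motif TGANTCA was found for Map2k6 alone, and 6.75% of all windows held it. The full cAMP response element TGACGTCA was found for Dusp1 alone, with 1.55% of all windows. A motif for NF-kB was found for Map3k7, Map4k1, Mapk1ip1l and Mapk7, in 9.8% of member windows and 7.25% of all. These matches describe letters in a window, not binding.

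The values were log2 signals per probe set, and the lowest, 2.22, was shared by all arrays and acted as a floor. The 45 members had a median signal of 6.20, against 7.18 for all 10335 probe sets, and signals of different probe sets do not rank their genes by abundance. The median standard deviation (SD) within groups was 1.53 for the members and 1.45 for all probe sets. In 19 of the 45 members (42.2%, against 38.2% of all probe sets) the arrays of at least 1 group spanned more than 5 log2 units. At the floor were 4.97% of the members' values and 4.76% of all values. The 3 members with the lowest mean signal were Map2k6 with 2.87, Map3k1 with 2.95 and Dusp28 with 3.06, and differences involving values near the floor may be understated.

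**Figure D1:**
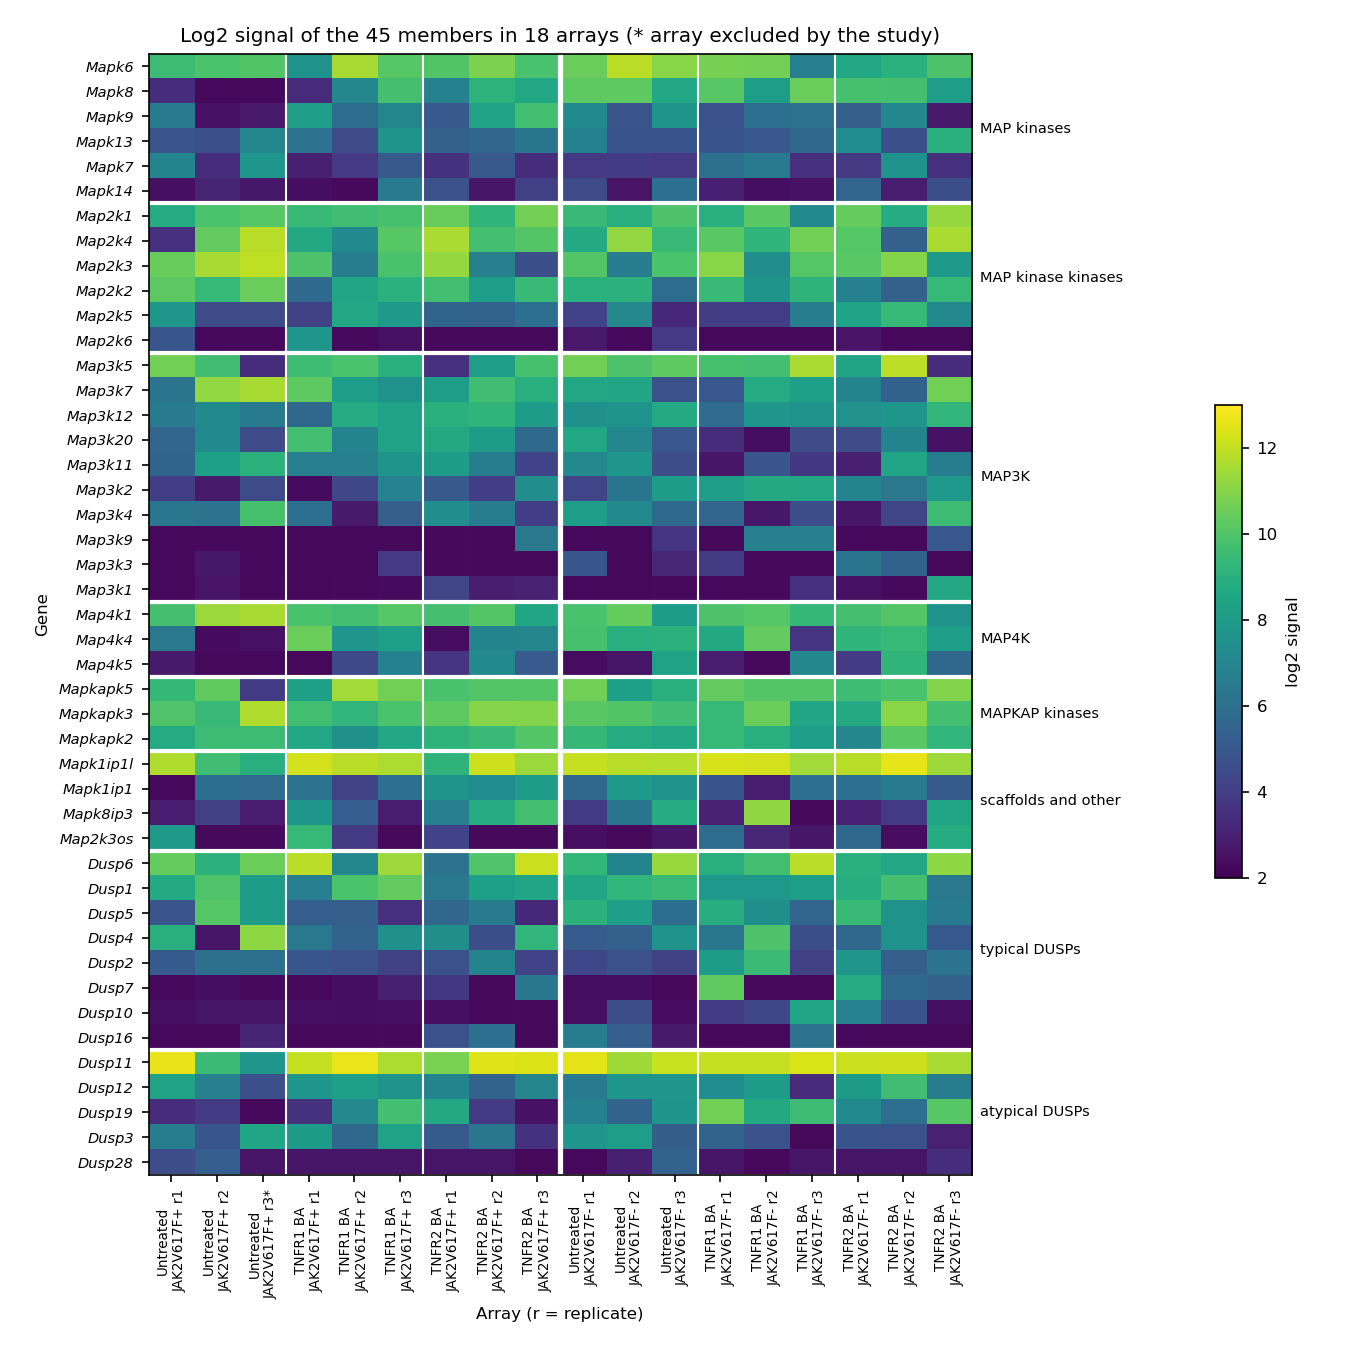
Log2 signal of the 45 members (rows, grouped by role) in 18 arrays (columns, by group and replicate), with the array that the study excluded marked by an asterisk. Mapk8 is dark in the untreated JAK2V617F+ arrays (2.25 to 3.42) and bright in all 9 JAK2V617F- arrays (8.15 to 10.48), and Dusp10 is dark in all JAK2V617F+ arrays.

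**Figure D2:**
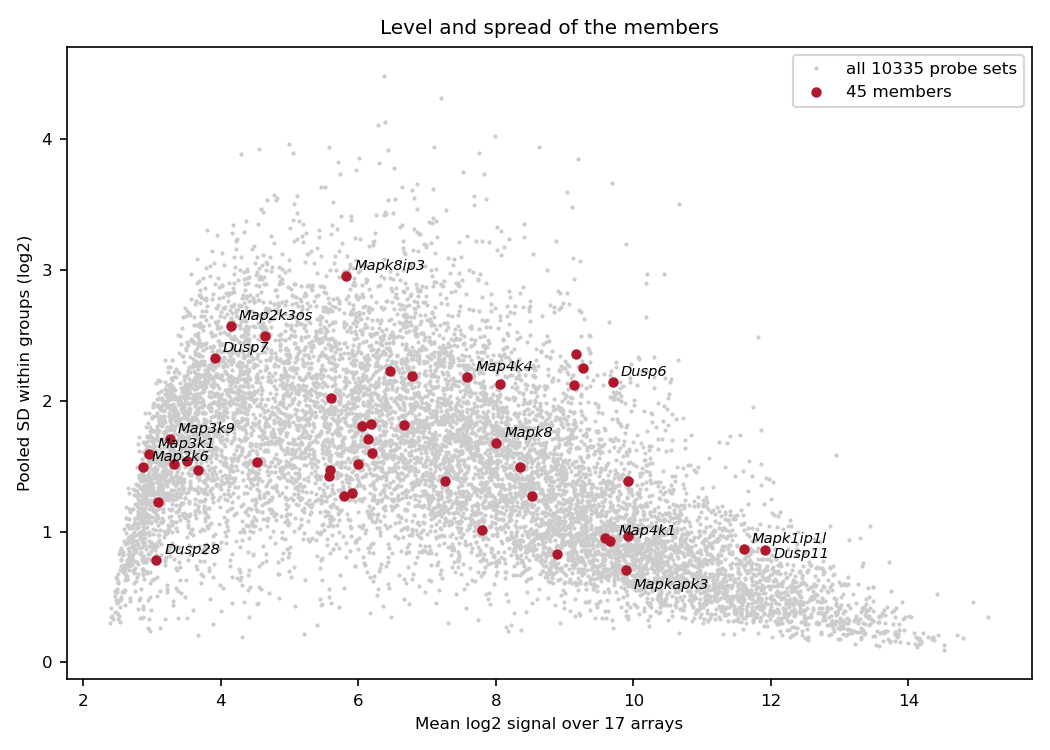
Mean log2 signal over 17 arrays (horizontal axis) and pooled SD within groups on the log2 scale (vertical axis) for all 10335 probe sets (grey) and the 45 members (red). The members lie within the cloud of all probe sets, with SDs from 0.71 to 2.95.

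The sorted population matched its gate in part. Of the 7 measured progenitor genes, Myb had log2 signals of 11.95 to 13.19 and Gata2 of 9.13 to 11.89. Cd34 ranged from 7.12 to 12.04, Kit itself from 3.71 to 9.95 and Meis1 from 2.22 to 10.12, and none of the 7 passed the threshold between genotypes in limma. Of the 7 measured neutrophil genes, Elane (12.91 to 14.52), S100a8 (13.66 to 15.32) and S100a9 (14.31 to 15.49) were high on every array, Ngp ranged from 9.29 to 14.32, Camp from 3.59 to 13.53 and Ltf from 3.38 to 12.06, and Mmp8 had a mean of 3.07. The list means were 9.23 to 12.26 in JAK2V617F+ arrays and 10.26 to 12.93 in JAK2V617F- arrays, with 1 of 7 higher in JAK2V617F+ cells and 0 past the threshold. All 8 measured genes of the mast cell and basophil list were higher in JAK2V617F+ cells, of which 5 had an adjusted p under 0.05 in limma. The mean signal of that list was 11.32 to 12.52 in JAK2V617F+ arrays and 6.52 to 8.75 in JAK2V617F- arrays. All 8 measured erythroid genes were also higher, 2 of them past the threshold, with list means of 8.92 to 11.22 and 6.91 to 9.39. The B cell genes Cd79a, Cd79b, Ebf1 and Vpreb3 had mean signals under 4, while Vpreb1 had a mean of 6.37 and a range of 2.22 to 11.91. All 5 measured B cell genes were lower in JAK2V617F+ cells, Vpreb1 by -3.41, and 0 passed the threshold in limma. The 5 measured megakaryocyte genes were all higher in JAK2V617F+ cells, with list means of 5.28 to 8.12 and 4.65 to 5.43. None of them passed the threshold in limma, and 3 had mean signals under 4. Of the monocyte and macrophage list 4 of 7 genes were higher, and of the T and NK cell list 0 of 2, with 0 past the threshold. Genes past the threshold were thus found in the mast cell and erythroid lists alone, and all of them were higher with JAK2V617F. The megakaryocyte list leaned higher and the B cell, neutrophil and T and NK cell lists lower, without a gene past the threshold. The B cell list means overlapped, with 2.22 to 3.92 in JAK2V617F+ arrays and 2.25 to 6.15 in JAK2V617F- arrays. Of all probe sets, 50% were higher in JAK2V617F+ cells. The part of these lists in the differences below was not tested. The arrays do not tell fewer cells of a type from less RNA per cell.

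The first question was which members differed between JAK2V617F+ and JAK2V617F- cells when the 3 treatments were averaged. No member passed the threshold, an adjusted p of 0.05 in limma over all probe sets, which 0.358% of all probe sets passed. The nearest was Mapk8, which encodes the stress kinase JNK1, and it was lower in JAK2V617F+ cells. At an unadjusted p under 0.05 there were 6 of 45 members (13.3%), against 10.3% of all probe sets. Only Map3k20 was higher (background 5.21%), and Mapk8, Map3k2, Map4k4, Dusp10 and Dusp19 were lower (background 5.08%). The median difference of the members was -0.03 on the log2 scale, with 22 above and 23 below 0, and that of all probe sets was 0.00.

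Among the MAP kinases, Mapk8 had log2 signals of 3.42 and 2.25 in untreated JAK2V617F+ cells, 3.37, 7.10 and 9.76 with TNFR1 BA, and 6.83, 9.10 and 8.61 with TNFR2 BA. In JAK2V617F- cells it had 10.27, 10.26 and 8.61 untreated, 10.14, 8.17 and 10.48 with TNFR1 BA, and 9.78, 9.76 and 8.15 with TNFR2 BA. All 9 JAK2V617F- arrays were thus high, the untreated JAK2V617F+ arrays were near the floor, and the treated JAK2V617F+ arrays reached into the range of the JAK2V617F- arrays. The difference over treatments was -3.59 (SE 0.78, 95% interval -5.24 to -1.95, adjusted p = 0.0604 in limma), and it was lower in 7 of 8 pairs of arrays with the same treatment and number. Here and below, the 8 pairs come from 3 replicate numbers, taken as 3 experiments, so they are not 8 independent replicates. Such pair counts were not made for all probe sets, so they have no background here. The call depended on the setting, since Mapk8 passed with all 18 arrays (adjusted p = 0.0472 in limma), after quantile normalization (adjusted p = 0.0434) and without TNFR1 BA JAK2V617F+ replicate 3 (adjusted p = 0.0136) or untreated JAK2V617F+ replicate 1 (adjusted p = 0.0447). Without replicate 1 of all groups the difference was -2.73, and the highest adjusted p over 28 alternatives was 0.529. The study singled out Mapk8 on these same arrays. The study's filters asked for a difference between genotypes, a return with the antibody and little change in JAK2V617F- cells. The genotype difference of Mapk8, and its antibody effects and interactions below, are therefore not independent evidence. The study also measured Mapk8 by qPCR in a separate group of MPN mice, where it trended lower in JAK2V617F+ cells. In cells of myelofibrosis patients it reported significantly lower expression than in normal marrow.

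The other MAP kinases showed no such difference between genotypes when the treatments were averaged. Mapk9, encoding JNK2, ranged from 2.54 to 9.67 in JAK2V617F+ arrays and from 2.79 to 7.70 in JAK2V617F- arrays, so the genotypes overlapped. Its difference was 0.64 (SE 0.90, 95% interval -1.26 to 2.53). That mean joined opposite directions. Untreated, the group means of Mapk9 were 4.52 in JAK2V617F+ and 6.61 in JAK2V617F- cells. With TNFR1 BA they were 7.01 and 5.63, and with TNFR2 BA 7.69 and 5.07. Mapk14, encoding p38 alpha, had medians of 2.91 and 2.98 and a difference of -0.34 (SE 0.72), with 9 of 17 arrays under 3. Mapk6, which encodes the atypical kinase ERK3, differed by 0.02 (SE 0.60), Mapk7 (ERK5) by -0.33 (SE 0.78) and Mapk13 (p38 delta) by -0.33 (SE 0.75).

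The 6 measured MAP kinase kinases gave differences from -0.94 to 0.90, and none reached an unadjusted p under 0.05. Map2k1, which encodes the ERK activator MEK1, was steady, from 8.75 to 10.72 in JAK2V617F+ arrays and from 7.24 to 11.26 in JAK2V617F- arrays (difference 0.24, SE 0.48). Map2k4, whose product activates JNK, was less so, because 1 untreated JAK2V617F+ array had 3.47 and the other 10.34, and 1 JAK2V617F- array with TNFR2 BA had 5.37 (difference -0.94, SE 0.93). For Map2k4 the 95% interval ran from -2.90 to 1.03, so any difference within that range was compatible with these arrays. Map2k6, a p38 activator, was at the floor on 10 of 17 arrays. Map2k2, encoding the other ERK activator MEK2, differed by 0.90 (SE 0.71), the p38 activator gene Map2k3 by -0.24 (SE 0.89) and Map2k5 by 0.23 (SE 0.87). Map2k3os, a noncoding RNA gene beside Map2k3, had 7.90 and 2.29 on the untreated JAK2V617F+ arrays and differed by 0.42 (SE 1.11).

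Of the MAP3Ks, Map3k2 and Map3k20 came closest to the threshold, in opposite directions. Map3k2 encodes MEKK2, a kinase that acts in the ERK5 and JNK branches. Its log2 signals in JAK2V617F+ cells were 4.03 and 2.81 untreated, 2.32, 4.36 and 6.87 with TNFR1 BA, and 5.07, 4.06 and 7.40 with TNFR2 BA. In JAK2V617F- cells they were 4.30, 6.27 and 8.04 untreated, 8.11, 8.62 and 8.60 with TNFR1 BA, and 6.96, 6.34 and 7.84 with TNFR2 BA. The genotypes overlapped, and Map3k2 was lower in JAK2V617F+ cells in 8 of 8 matched pairs (difference -2.75, SE 0.81, adjusted p = 0.215 in limma). The differences of the pairs ranged from -5.79 to -0.27.

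Map3k20 encodes ZAK, a kinase of the ribotoxic stress response upstream of JNK and p38. It had 5.61 and 7.21 in untreated JAK2V617F+ cells, 9.72, 6.98 and 8.34 with TNFR1 BA, and 8.67, 8.02 and 5.82 with TNFR2 BA. In JAK2V617F- cells it had 8.56, 7.09 and 4.97 untreated, 3.42, 2.40 and 4.56 with TNFR1 BA, and 4.56, 6.95 and 2.54 with TNFR2 BA. Untreated cells of both genotypes overlapped, with group means of 6.41 in JAK2V617F+ and 6.87 in JAK2V617F- cells. Arrays with TNFR2 BA overlapped too, with group means of 7.50 and 4.68. Only with TNFR1 BA was every JAK2V617F+ array above every JAK2V617F- array. Over treatments the difference was 2.41 (SE 0.84, adjusted p = 0.311 in limma), with 7 of 8 matched pairs higher in JAK2V617F+ cells.

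The remaining MAP3Ks included the TNF pathway kinases. Map3k7, encoding TAK1, ranged from 6.24 to 11.21 in JAK2V617F+ arrays and from 4.75 to 10.66 in JAK2V617F- arrays (difference 1.35, SE 0.93). Map3k5, encoding the stress kinase ASK1, was between 8.12 and 11.89 on 15 arrays and at 3.47 and 3.41 on the other two, both with TNFR2 BA and of different genotypes (difference -0.60, SE 0.98). Map3k1, encoding MEKK1, stayed under 3 on 13 of 17 arrays. Map3k9 and Map3k3 were at the floor on 11 and 9 arrays. Map3k12, encoding the kinase DLK, was between 5.68 and 9.25 and differed by -0.03 (SE 0.60). Map3k4, encoding MEKK4, spanned 2.67 to 9.56 in JAK2V617F- arrays alone and differed by 0.03 (SE 0.97).

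Among the MAP4Ks, Map4k4, a kinase upstream of JNK, had 6.35 and 2.32 in untreated JAK2V617F+ cells, 10.52, 7.75 and 8.23 with TNFR1 BA, and 2.39, 6.97 and 7.03 with TNFR2 BA. JAK2V617F- cells gave 9.82, 8.93 and 9.05 untreated, 8.69, 10.37 and 3.68 with TNFR1 BA, and 9.21, 9.39 and 8.14 with TNFR2 BA. Untreated arrays of the genotypes did not overlap, and neither did those with TNFR2 BA, whereas those with TNFR1 BA did. The difference over treatments was -2.38 (SE 0.97, adjusted p = 0.404 in limma), and without replicate 2 it was -1.29. Map4k1, encoding the blood cell kinase HPK1, was steady, between 7.67 and 11.36, and differed by 0.49 (SE 0.47). Map4k5 spread from 2.22 to 9.19 and differed by -0.81 (SE 1.10).

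The 3 MAPKAP kinases, which are substrates of p38 and the atypical MAP kinases, were among the steadiest members. Their means were 8.89 for Mapkapk2, 9.89 for Mapkapk3 and 9.92 for Mapkapk5, and their SDs within groups were 0.83, 0.71 and 0.97. Their genotype differences were 0.14 (SE 0.48), 0.28 (SE 0.39) and 0.12 (SE 0.47). For Mapkapk3 the 95% interval was -0.55 to 1.11.

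**Figure D3:**
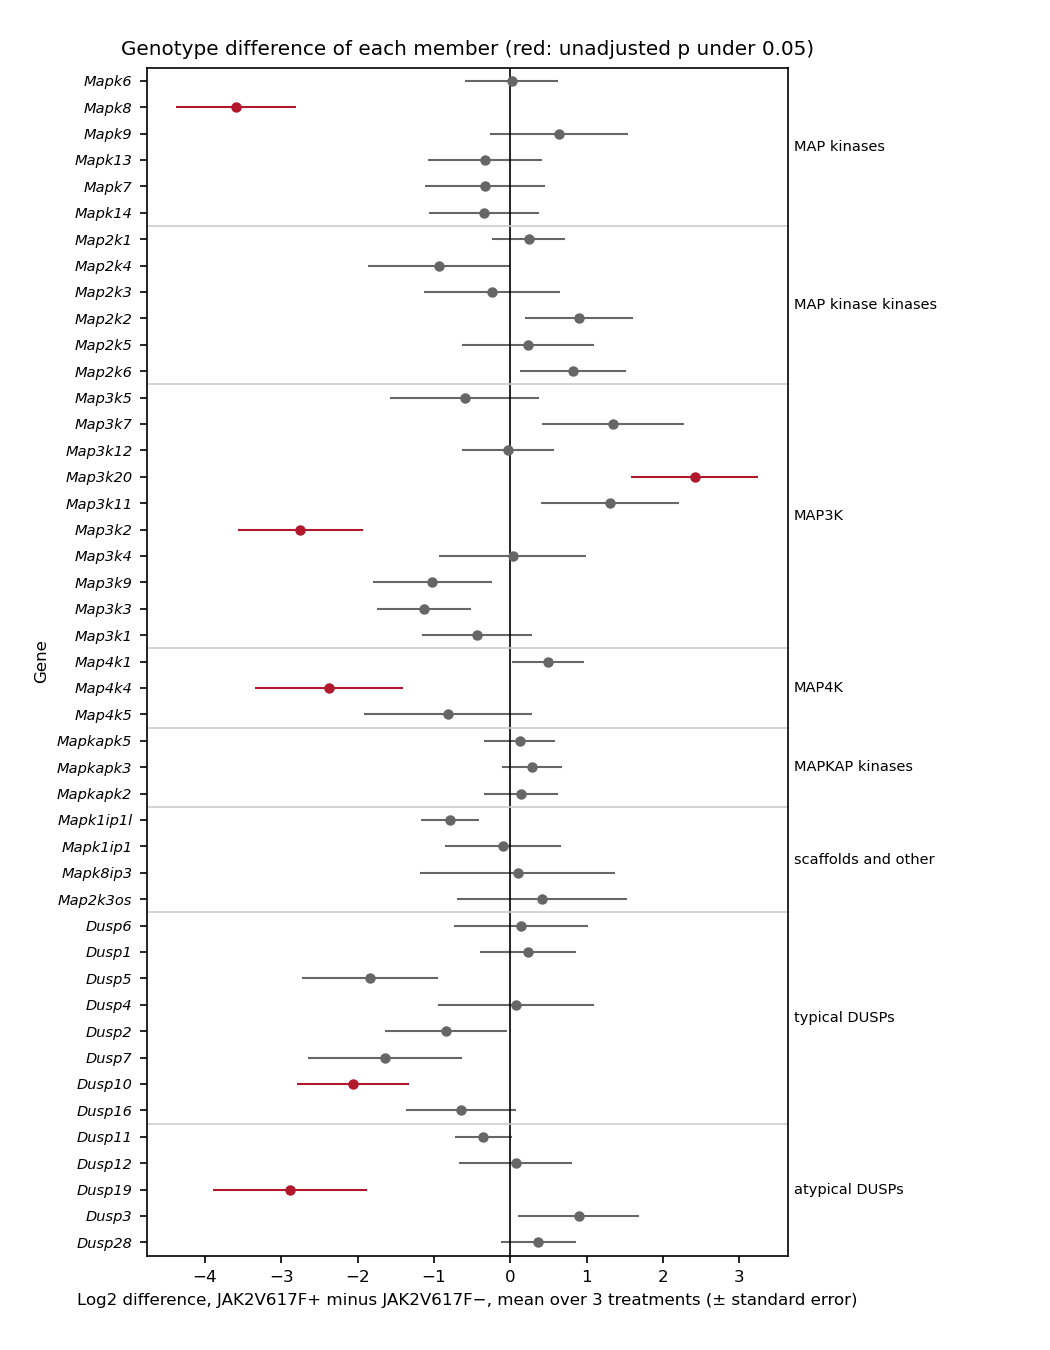
Log2 difference of each member between JAK2V617F+ and JAK2V617F- cells, averaged over 3 treatments (points, horizontal axis), with the standard error of the limma fit (bars), grouped by role. The 6 members with an unadjusted p under 0.05 are red: Map3k20 lies to the right of 0, and Mapk8, Map3k2, Map4k4, Dusp10 and Dusp19 lie to the left.

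Of the 8 typical DUSPs, the ones with a domain that binds MAP kinases, Dusp10 came closest to the threshold. Dusp10 encodes MKP-5, a phosphatase for JNK and p38. In JAK2V617F+ cells it was low on every array, from 2.25 to 2.61 (median 2.44). In JAK2V617F- cells it had 2.46, 4.62 and 2.34 untreated, 3.97, 4.32 and 8.53 with TNFR1 BA, and 6.86, 4.85 and 2.44 with TNFR2 BA. The genotypes thus overlapped only where JAK2V617F- arrays were also low, and 3 of 9 of those were under 3. Dusp10 differed by -2.06 (SE 0.73, adjusted p = 0.328 in limma), or by -1.57 without TNFR1 BA JAK2V617F- replicate 3, the array with 8.53.

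The DUSPs known as feedback genes of the ERK branch varied widely within groups. Dusp6, encoding the cytoplasmic ERK phosphatase MKP-3, ranged from 6.19 to 12.13 in JAK2V617F+ arrays and from 6.97 to 11.85 in JAK2V617F- arrays (difference 0.14, SE 0.88). Dusp5, a nuclear ERK phosphatase, had medians of 5.33 and 7.62 and was lower in JAK2V617F+ cells in 7 of 8 matched pairs (difference -1.84, SE 0.89, adjusted p = 0.490 in limma). Dusp4, whose product MKP-2 is nuclear, had 8.95 and 2.64 on the untreated JAK2V617F+ arrays and differed by 0.07 (SE 1.02). Dusp1, the stress-induced phosphatase MKP-1, was between 6.40 and 10.34 and differed by 0.23 (SE 0.63). Dusp2 differed by -0.84 (SE 0.80), Dusp7 by -1.64 (SE 1.01) and Dusp16, a JNK phosphatase, by -0.65 (SE 0.72).

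The atypical DUSPs are smaller and lack the domain by which typical ones bind MAP kinases. Dusp19 had 3.40 and 3.87 in untreated JAK2V617F+ cells, 3.57, 7.18 and 9.70 with TNFR1 BA, and 8.63, 3.87 and 2.55 with TNFR2 BA. In JAK2V617F- cells it had 6.83, 5.52 and 7.69 untreated, 10.66, 8.70 and 9.56 with TNFR1 BA, and 7.27, 6.01 and 10.15 with TNFR2 BA. Only the untreated arrays did not overlap between genotypes (difference over treatments -2.89, SE 1.004, adjusted p = 0.318 in limma). Dusp11, which acts on RNA, had the highest mean signal of the members, 11.92, and differed by -0.35 (SE 0.37). Dusp12 differed by 0.07 (SE 0.73), Dusp3 by 0.89 (SE 0.79) and Dusp28 by 0.36 (SE 0.49). Mapk1ip1l followed with 11.60, and it was lower in JAK2V617F+ cells in 7 of 8 matched pairs (difference -0.79, SE 0.38, adjusted p = 0.488 in limma).

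**Figure D4:**
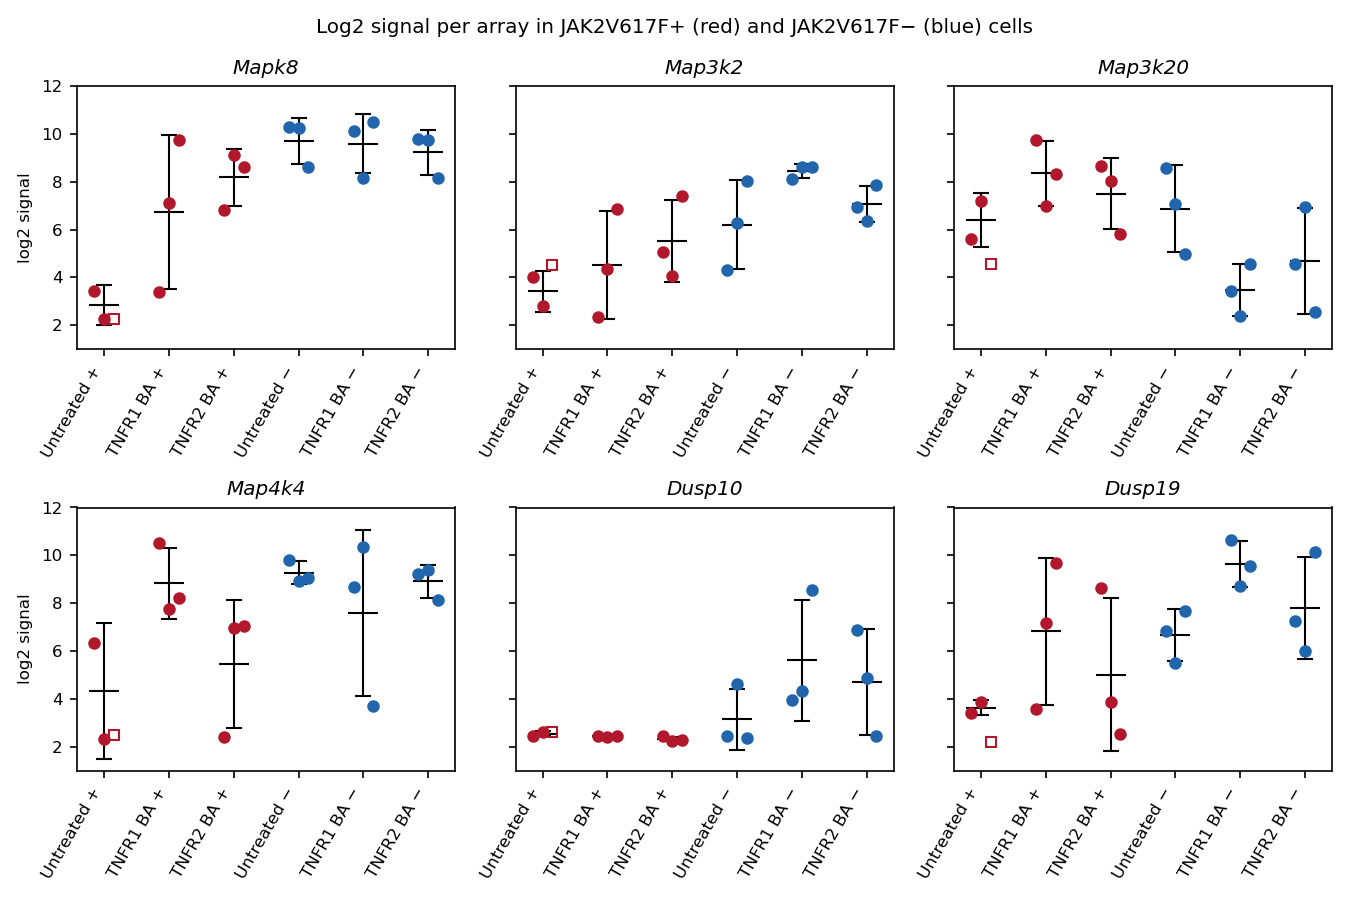
Log2 signal (vertical axis) per array in the 6 groups for the 6 members with an unadjusted p under 0.05 between genotypes, with group mean and SD (bars). JAK2V617F+ arrays are red and JAK2V617F- arrays blue, while an open square shows the excluded array, which no mean includes. Mapk8 is lowest in untreated JAK2V617F+ cells, and Dusp10 is between 2.25 and 2.61 in all 8 JAK2V617F+ arrays used.

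The genotypes were then compared within each treatment. In untreated cells no member passed (0.0774% of all probe sets did), and 3 of 45 had an unadjusted p under 0.05 (background 7.32%), all lower in JAK2V617F+ cells. Mapk8 differed by -6.88 (SE 1.46, adjusted p = 0.142 in limma), Map4k4 by -4.93 (SE 1.80, adjusted p = 0.531) and Mapk1ip1 by -3.01 (SE 1.41, adjusted p = 0.662). Each of these rested on 2 untreated JAK2V617F+ arrays. Mapk1ip1 had 2.22 and 5.95 on them, so that without the first the difference was -1.14 and without the second -4.88. For Map4k4 it was -2.92 without untreated JAK2V617F+ replicate 2. The array that the study excluded had 2.25 for Mapk8, 2.51 for Map4k4 and 5.87 for Mapk1ip1. Mapk8 passed in untreated cells in 1 of 28 alternatives, without TNFR1 BA JAK2V617F+ replicate 1, which is in neither group but enters the shared spread (adjusted p = 0.0224 in limma).

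With TNFR1 BA, 7 of 45 members (15.6%) had an unadjusted p under 0.05 between genotypes, against 6.21% of all probe sets, and none passed after adjustment (0.0871% of all). Map3k20, Map3k11 and Dusp3 were higher in JAK2V617F+ cells, by 4.89 (SE 1.39, adjusted p = 0.484 in limma), 3.28 (SE 1.498) and 3.16 (SE 1.31). Map3k2, Dusp10, Map3k9 and Mapk8 were lower, by -3.93 (SE 1.35), -3.17 (SE 1.22), -3.06 (SE 1.29) and -2.85 (SE 1.30). Dusp10 differed by -1.71 without TNFR1 BA JAK2V617F- replicate 3. Mapk8 differed by -1.16 without TNFR1 BA JAK2V617F+ replicate 1, by -4.36 without replicate 3 of that group, and by -0.89 without number 1 in all groups. Map3k11, encoding the JNK pathway kinase MLK3, had 6.72, 6.77 and 7.70 in JAK2V617F+ cells and 2.67, 4.91 and 3.77 in JAK2V617F- cells, without overlap. Dusp3, encoding the phosphatase VHR, had 7.99, 5.66 and 8.32 against 5.50, 4.77 and 2.22, also without overlap. For Map3k9 all JAK2V617F+ arrays and 1 of 3 JAK2V617F- arrays were at the floor, and the other two had 6.80.

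With TNFR2 BA, 2 of 45 members (4.44%) had an unadjusted p under 0.05 between genotypes, against a background of 5.63%, and none passed after adjustment (0.0387% of all). Map4k4 differed by -3.45 (SE 1.61) and Map3k3, which encodes MEKK3, by -2.38 (SE 1.02), with adjusted p of 0.880 and 0.850 in limma. Map3k3 was between 2.22 and 2.29 in JAK2V617F+ cells and had 6.23, 5.41 and 2.22 in JAK2V617F- cells, and without the first or the last of these the difference was -1.58 or -3.58. That of Map4k4 was -1.91 without TNFR2 BA JAK2V617F+ replicate 1. Mapk8 differed by -1.05 here (SE 1.30).

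The next question was what each blocking antibody changed within a genotype. Both comparisons in JAK2V617F+ cells used the same 2 untreated arrays, so their values stand side by side and are not separate evidence. With TNFR1 BA, 3 of 45 members had an unadjusted p under 0.05 (background 6.78%) and none passed after adjustment (0.00968% of all). With TNFR2 BA there were also 3 (background 5.26%), and none passed (0.029% of all). Mapk8 was higher by 3.91 with TNFR1 BA (SE 1.46, adjusted p = 0.614 in limma) and by 5.34 with TNFR2 BA (SE 1.46, adjusted p = 0.755). Without TNFR1 BA JAK2V617F+ replicate 3 the first of these was 2.40. With TNFR1 BA its 3 arrays spread from 3.37 to 9.76, whereas all 3 arrays with TNFR2 BA were at 6.83 or above.

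Map4k4 was higher by 4.50 with TNFR1 BA (SE 1.80, adjusted p = 0.666 in limma) and by 1.13 with TNFR2 BA (SE 1.80). Without untreated JAK2V617F+ replicate 2, which had 2.32, its TNFR1 BA difference was 2.49. Mapk1ip1 had 6.20, 4.26 and 6.01 with TNFR1 BA and 7.67, 7.29 and 8.09 with TNFR2 BA, against 2.22 and 5.95 untreated (TNFR2 BA difference 3.60, SE 1.41, adjusted p = 0.854 in limma). Without untreated replicate 1 that difference was 1.73, and without replicate 2 it was 5.47. Dusp28 had an unadjusted p under 0.05 and a lower signal with both antibodies, by -2.33 and -2.45 (SE 0.91 each), because the untreated arrays had 4.61 and 5.27 and those with either antibody 2.22 to 2.62. The excluded untreated array had 2.62 for Dusp28. The scaffold gene Mapk8ip3, encoding JIP3, which binds JNK and its activators, had 2.88 and 4.09 untreated, 7.80, 5.29 and 2.88 with TNFR1 BA, and 6.77, 8.80 and 9.68 with TNFR2 BA. Its TNFR2 BA difference of 4.93 missed even an unadjusted p of 0.05, since its SD within groups, 2.95, was the largest of the members.

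Between the 2 antibodies in JAK2V617F+ cells, 0 of 45 members had an unadjusted p under 0.05 in limma (background 4.37%, with 0% of all probe sets past adjustment), and 1 did in the methods' paired t-test (3.91% of all probe sets). The difference for Mapk8, TNFR2 BA minus TNFR1 BA, was 1.44 (SE 1.30).

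In JAK2V617F- cells the antibodies left Mapk8 near its untreated signal, with differences of -0.12 and -0.48 (SE 1.30 each). With TNFR1 BA, 2 of 45 members had an unadjusted p under 0.05 (background 3.73%, and 0% of all past adjustment), Map3k20 with -3.41 (SE 1.39) and Dusp3 with -2.87 (SE 1.31), which was -1.90 without TNFR1 BA replicate 3. With TNFR2 BA, 4 of 45 did (8.89%, background 2.47%, and 0% of all past adjustment). Dusp7, an ERK phosphatase, and Map2k5, encoding the ERK5 activator MEK5, were higher, by 4.29 (SE 1.69) and 3.44 (SE 1.44). Dusp3 and Dusp16 were lower, by -2.82 (SE 1.31) and -2.65 (SE 1.19). Adjusted p-values of all these were 1 in limma.

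The arrays behind them were as follows. Dusp7 was between 2.22 and 2.42 in untreated JAK2V617F- cells and had 8.78, 5.80 and 5.36 with TNFR2 BA, without overlap, while 1 of 3 arrays with TNFR1 BA had 10.33 and the others 2.22. Map2k5 had 4.20, 7.16 and 3.23 untreated, 4.03, 4.05 and 6.62 with TNFR1 BA, and 8.36, 9.36 and 7.19 with TNFR2 BA. It was the only member with an unadjusted p under 0.05 between the antibodies in these cells (difference 3.40, SE 1.44; background 3.7%, and 0% of all past adjustment). Dusp3 had 7.73, 8.12 and 5.24 untreated and 4.85, 4.76 and 3.01 with TNFR2 BA. Dusp16 had 6.66, 5.28 and 2.81 untreated and 2.23 to 2.30 with TNFR2 BA.

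**Figure D5:**
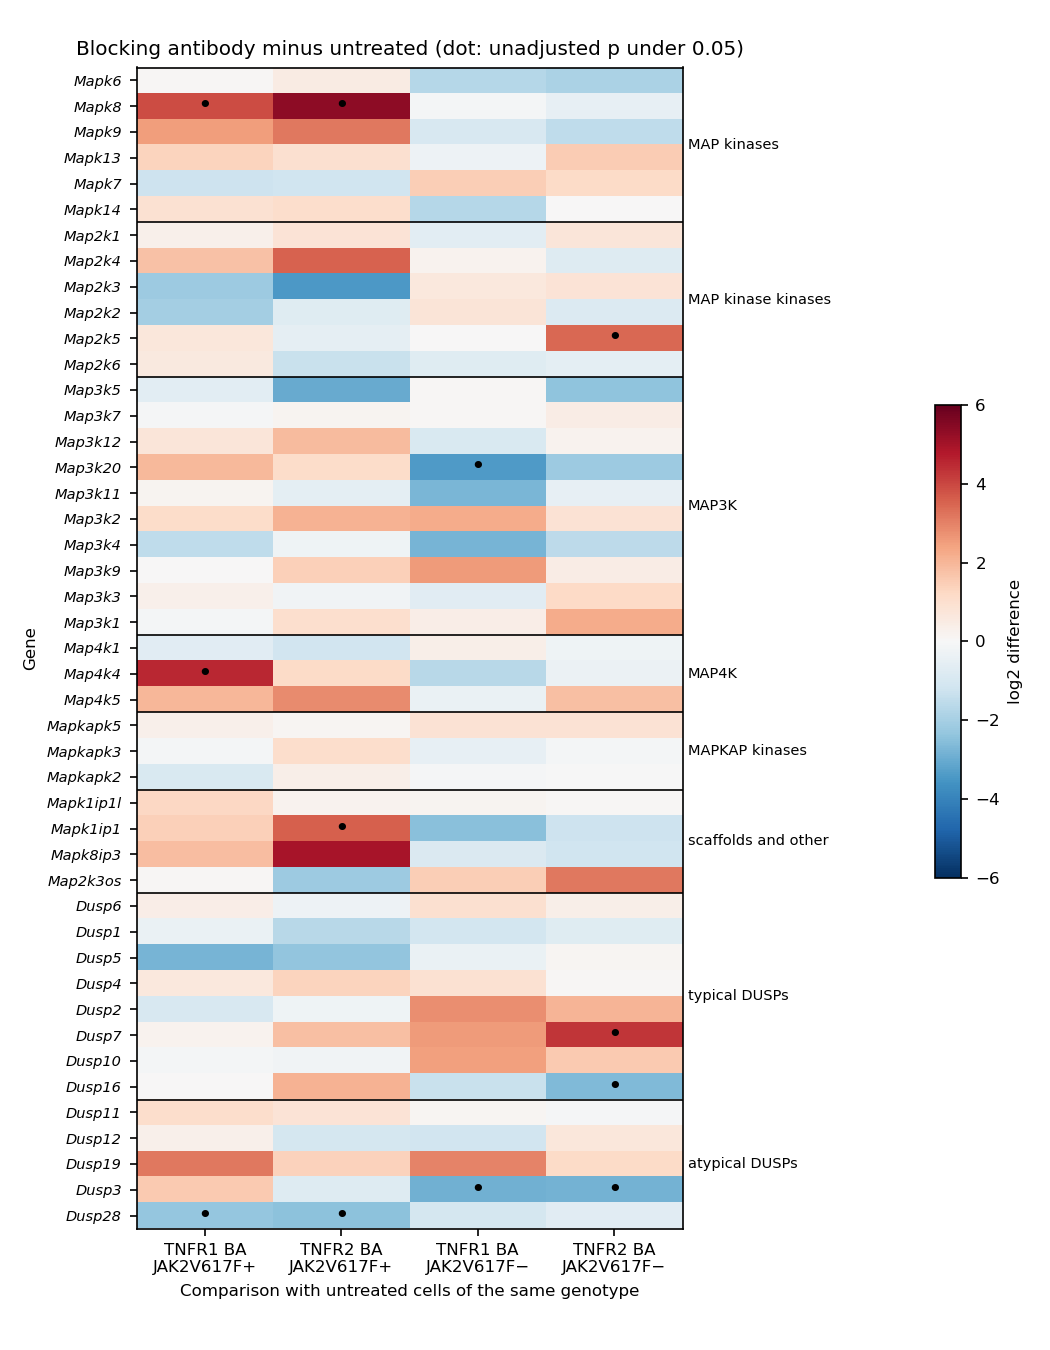
Log2 difference (colour) between antibody-treated and untreated cells of the same genotype for the 45 members (rows, grouped by role) in 4 comparisons (columns), with a dot where the unadjusted p in limma was under 0.05. Mapk8 is red in both JAK2V617F+ columns (3.91 and 5.34) and pale in both JAK2V617F- columns (-0.12 and -0.48), and no cell passed after adjustment.

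Whether an antibody acted differently in the genotypes was tested as an interaction, the effect in JAK2V617F+ cells minus that in JAK2V617F- cells. For TNFR1 BA, 3 of 45 members had an unadjusted p under 0.05 (background 5.22%, and 0% of all past adjustment). They were Map4k4 with 6.19 (SE 2.42), Map3k20 with 5.35 (SE 2.08) and Dusp3 with 4.43 (SE 1.97), with adjusted p-values from 0.924 to 0.938 in limma. For TNFR2 BA there were again 3 (background 3.83%, and 0% of all past adjustment). Mapk8 had 5.83 (SE 1.96), Mapk1ip1 4.83 (SE 1.89) and Dusp16 4.76 (SE 1.79), each with an adjusted p of 0.997 in limma. Without untreated JAK2V617F+ replicate 1 the value of Mapk1ip1 was 2.96. The TNFR1 BA interaction of Mapk8 had the same direction, 4.03 (SE 1.96, unadjusted p = 0.0545 and adjusted p = 0.938 in limma). Both interactions subtract the same untreated arrays, of which 2 are JAK2V617F+, so the shared direction is not separate evidence. By array number, the TNFR2 BA effect on Mapk8 was 3.41 and 6.85 in JAK2V617F+ cells and -0.49, -0.50 and -0.46 in JAK2V617F- cells. The signs were thus opposite for the 2 array numbers with an untreated JAK2V617F+ array in use. The difference itself did not pass the adjustment. Mapk8 was chosen by the study on these arrays for such a pattern, so the signs are not independent evidence.

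Genes on either side of the cascade were counted from 3 lists. Of the Ras and Raf list, which holds the activators and inhibitors upstream of MEK, 17 of 22 genes were measured and 0 passed in any of the 12 comparisons in limma, with 0 to 2 at an unadjusted p under 0.05. Grb2 differed between genotypes in untreated cells by -1.69 (SE 0.47, adjusted p = 0.374 in limma). In JAK2V617F+ cells it was higher with TNFR1 BA by 1.91 and with TNFR2 BA by 1.56 (SE 0.47 each), against the same 2 untreated arrays. Shc1 was lower with TNFR1 BA in these cells, by -4.29 (SE 1.78), and Spry1 was higher with TNFR2 BA, by 2.46 (SE 0.90). Of the MAP kinase targets, 23 of 32 were measured and 0 passed, again with 0 to 2 at an unadjusted p under 0.05. Over the same comparisons, 0% to 0.358% of all probe sets passed and 2.47% to 10.3% had an unadjusted p under 0.05. Fos, the immediate early transcription factor induced by ERK signalling, differed by 2.62 over treatments (SE 1.04, adjusted p = 0.396 in limma) and Ier3 by 0.96 (SE 0.40, adjusted p = 0.414). Jun, the JNK substrate gene, differed between genotypes with TNFR1 BA by 3.49 (SE 1.17, adjusted p = 0.570 in limma), and in JAK2V617F- cells by -3.29 between TNFR1 BA and untreated. Rps6ka5, encoding the MAP kinase-activated kinase MSK1, differed between genotypes in untreated cells by -4.16 (SE 1.94, adjusted p = 0.662 in limma) and in JAK2V617F- cells by -4.12 between TNFR2 BA and untreated (SE 1.74), with a TNFR2 BA interaction of 6.73 (SE 2.61, adjusted p = 0.997 in limma).

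Of the genes between the TNF receptors and the MAP kinases, 16 of 19 were measured, and Xiap alone passed. At an unadjusted p under 0.05 in limma there were 4 of 16 between genotypes over treatments (background 10.3%) and 5 of 16 with TNFR1 BA (background 6.21%), and 0 to 2 in the other 10 comparisons. Besides Xiap, those over treatments were Tab1, encoding a partner of TAK1, with 2.06 (SE 0.85), the stress gene Gadd45b with -2.53 (SE 0.87) and Birc2, encoding cIAP1, with -1.51 (SE 0.58). With TNFR1 BA they were Tab1 with 3.26 (SE 1.42), the receptor adaptor gene Tradd with 2.2 (SE 0.84), the ubiquitin ligase gene Itch with -2.60 (SE 1.18) and Traf5 with -2.04 (SE 0.95), besides Xiap with -5.97 (SE 1.18, adjusted p = 0.0757 in limma). Xiap encodes an inhibitor of caspases that also takes part in TNF receptor signalling. The study chose it on these arrays together with Mapk8, by the same filters for a genotype difference and a return with TNFR2 BA. Its array values and its place in these counts are thus not independent evidence. By qPCR in separate MPN mice the study found Xiap significantly lower in JAK2V617F+ cells. On the arrays Xiap was lower in JAK2V617F+ cells over treatments by -4.19 (SE 0.71, adjusted p = 0.00774 in limma) and in untreated cells by -7.82 (SE 1.32, adjusted p = 0.0188). That mean does not hold for each treatment, since with TNFR2 BA Xiap had no unadjusted p under 0.05 in limma between genotypes. In JAK2V617F+ cells Xiap was higher with TNFR2 BA than untreated by 8.37 (SE 1.32, adjusted p = 0.0291 in limma). It was also higher with TNFR2 BA than with TNFR1 BA, by 6.27 (SE 1.18, adjusted p = 0.264 in limma). Its TNFR2 BA interaction was 9.03 (SE 1.77, adjusted p = 0.414 in limma).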

How the data were processed

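Gene expression in 18 samples was measured by the authors on Affymetrix mouse expression arrays after amplification and biotin labelling of total RNA. The deposited log2 signals per probe set were made with Affymetrix Expression Console, per the labels and the study's methods, and were used as deposited. The sources used here do not state how signals were summarized and normalized or how the 10335 probe sets were chosen. There are no detection calls, and the number of arrays limits the precision.

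Symbols came from the platform annotation, in which 9651 probe sets had 1 symbol and 27 several. All 45 members were found by gene ID in the GRCm38.p6 table, with 0 symbols differing. The members and gene lists were chosen with earlier results of these data known. Differences were fitted to 6 group means of 17 arrays with limma 3.58.1 in R 4.3.3, with variances moderated along an intensity trend and p-values adjusted over all probe sets by Benjamini-Hochberg, at a threshold of 0.05. SE is the standard error of that fit. Named members were those with an unadjusted p under 0.05 in a comparison, a list of core genes, and those of extreme mean or spread. Fits were tested on simulated data with independent noise and neither a floor nor a replicate effect. That checks the code, not what can be detected in these data. Each result was recomputed with the excluded array, with the replicate number as a block, after quantile normalization, without dim probe sets, with array weights, without the variance trend, on the compared groups only, by the methods' paired t-test, and without single arrays or whole replicate numbers. Replicates are taken as the study's 3 independent experiments, which the labels do not state. Motifs were searched on both strands of RefSeq promoter windows. Probe sets that end in s_at (3 members) may read related genes of the same family.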

Additional observations from a re-analysis of the deposited data

How the results depend on the processing

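Counts of members past the threshold were 0 in all 12 comparisons, and they were 0 in 330 of 336 recomputed values. The 6 exceptions were a count of 1, always Mapk8. Over treatments it came with all 18 arrays, after quantile normalization, on probe sets with a mean of 6 or more (adjusted p = 0.0495 in limma), and without TNFR1 BA JAK2V617F+ replicate 3 or untreated JAK2V617F+ replicate 1 (adjusted p = 0.0136 and 0.0447), and in untreated cells without TNFR1 BA JAK2V617F+ replicate 1. Leaving out arrays thus gave counts from 0 to 1 in these comparisons and 0 in the others. None of the 37 named differences reversed in 1020 recomputed values. They had been chosen for an unadjusted p under 0.05 in limma on these same arrays. Several settings also cannot change a difference, such as leaving out an array of a group that is not compared. The lack of reversals is therefore not evidence for the differences.

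With the replicate number as a block, 0 members passed in each comparison (Mapk8 over treatments -3.52, adjusted p = 0.0665 in limma), so the block changed no call. Arrays of number 1, 2 and 3 had mean correlations of 0.00828, 0.0714 and 0.144 after subtraction of group means, against -0.0328 for arrays whose numbers differed, and for 13 of 17 the closest array of another group had the same number. In the methods' paired t-test, 0 to 6 members per comparison had an unadjusted p under 0.05 (3.3% to 9.39% of all probe sets) and 0 passed after Benjamini-Hochberg (0 to 11 of all). Over treatments that test took 8 pairs as independent, although they come from 3 replicate numbers. With 1 probe set per member, the alternative of the lowest-mean probe set gave no value. Spread within groups and the floor limit what could be detected.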
